A study of Mus musculus with 24 samples.

Results

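Hey1 and 7 other genes of the Notch pathway were followed in mouse splenic CD4+ T cells before and during stimulation through the T cell receptor. The genes were the receptors Notch1, Notch2 and Notch3, the DNA-binding factor Rbpj, and the target genes Hey1, Hes1, Dtx1 and Nrarp. They were found by matching their symbols to the Ensembl identifiers of the count table, and all 8 were present among its 54446 genes. Hey1 was chosen by its fall in CPM over the time course and the others by their place in the pathway with their changes after stimulation known, so those changes are given as descriptions without a test.

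The label WT was given to mice 1, 3 and 4, and the label Aim2-/- to mice 1, 2 and 4, labelled deficient in Aim2, which encodes a cytosolic DNA sensor. Anti-CD3 and anti-CD28 antibodies were applied for 3, 6 or 24 h, and a sample of each mouse at 0 h received none, which gave 24 libraries in 8 groups of 3. All mice had the strain background C57BL6, and the labels give no age. CD4+ T cells were enriched by removing other cells with antibodies, and each library is bulk RNA, in which fewer cells of a type and less RNA per cell cannot be told apart.

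Notch receptors are cut after a ligand on a neighbouring cell binds them, first by a metalloprotease and then by the gamma-secretase complex. The freed intracellular part enters the nucleus, joins RBPJ and a Mastermind co-activator on DNA, and turns on genes such as Hes1, Hey1, Dtx1 and Nrarp, of which the last 2 encode proteins that can restrain the pathway. Notch signals commit progenitors to the T lineage in the thymus and take part in the differentiation of helper T cells in the periphery.

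Libraries held 19715161 to 21627018 counts, and 3 counts, taken as the floor of detection for counting error only, lay between 0.129 and 0.155 counts per 1000000 (CPM). The T cell genes Cd3d, Cd3e, Cd3g, Cd4, Cd28, Cd5 and Lck summed to 4068 to 4367 CPM in the unstimulated libraries. The mouse labelled WT 1 went against its label. Its Aim2 level at 0 h was 21.5 CPM, against 75.0 CPM and 67.5 CPM in WT 3 and WT 4 and 15.7, 20.1 and 19.0 CPM in Aim2-/- 1, 2 and 4. Reads of Aim2 thus remained in the Aim2-/- libraries. Differences between the genotypes are given with all mice and, for the genes described, also without the mouse labelled WT 1. Markers of several other cell types were higher in the Aim2-/- libraries. At 0 h all 10 myeloid markers had a higher mean there, with sums of 382, 111 and 183 CPM in Aim2-/- 1, 2 and 4 against 36.4 to 60.2 CPM in WT. Basophil and mast cell markers summed to 53.3 to 102 CPM against 7.20 to 9.98 CPM, and B cell markers to 18.0 to 50.9 CPM against 11.1 to 15.9 CPM. The genotypes overlapped in the sums of CD8 T and NK cell markers, 17.4 to 29.7 CPM in Aim2-/- against 18.3 to 24.2 CPM in WT. They also overlapped in those of erythroid markers, 21.2 to 327 CPM against 8.98 to 70.2 CPM.

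Hey1 and Nrarp lost most of their CPM after stimulation, and Dtx1 fell and regained part of its level by 24 h. Rbpj climbed throughout, and Notch1 had a peak at 3 h. CPM is a share of a library, so RNA per cell was not measured. Notch2 stayed within a narrow range, while Hes1 and Notch3 were scarce at all times. Before stimulation the WT levels per kb of the longest annotated transcript, the scale on which genes can be compared, ran from Notch1 with 29.2 ± 2.83 CPM per kb (SD, n = 3) through Notch2 with 14.8, Rbpj with 8.43, Hey1 with 6.50, Dtx1 with 6.02, Nrarp with 4.74 and Hes1 with 0.739 to Notch3 with 0.0316 CPM per kb. Hey1 and Dtx1 were the only neighbours in this order whose libraries overlapped. At 24 h the WT order was Notch1, Rbpj, Notch2, Dtx1, Nrarp, Hes1, Hey1 and Notch3, and Hey1 had gone from the fourth place to the seventh, with 0.106 CPM per kb.

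**Figure D1:**
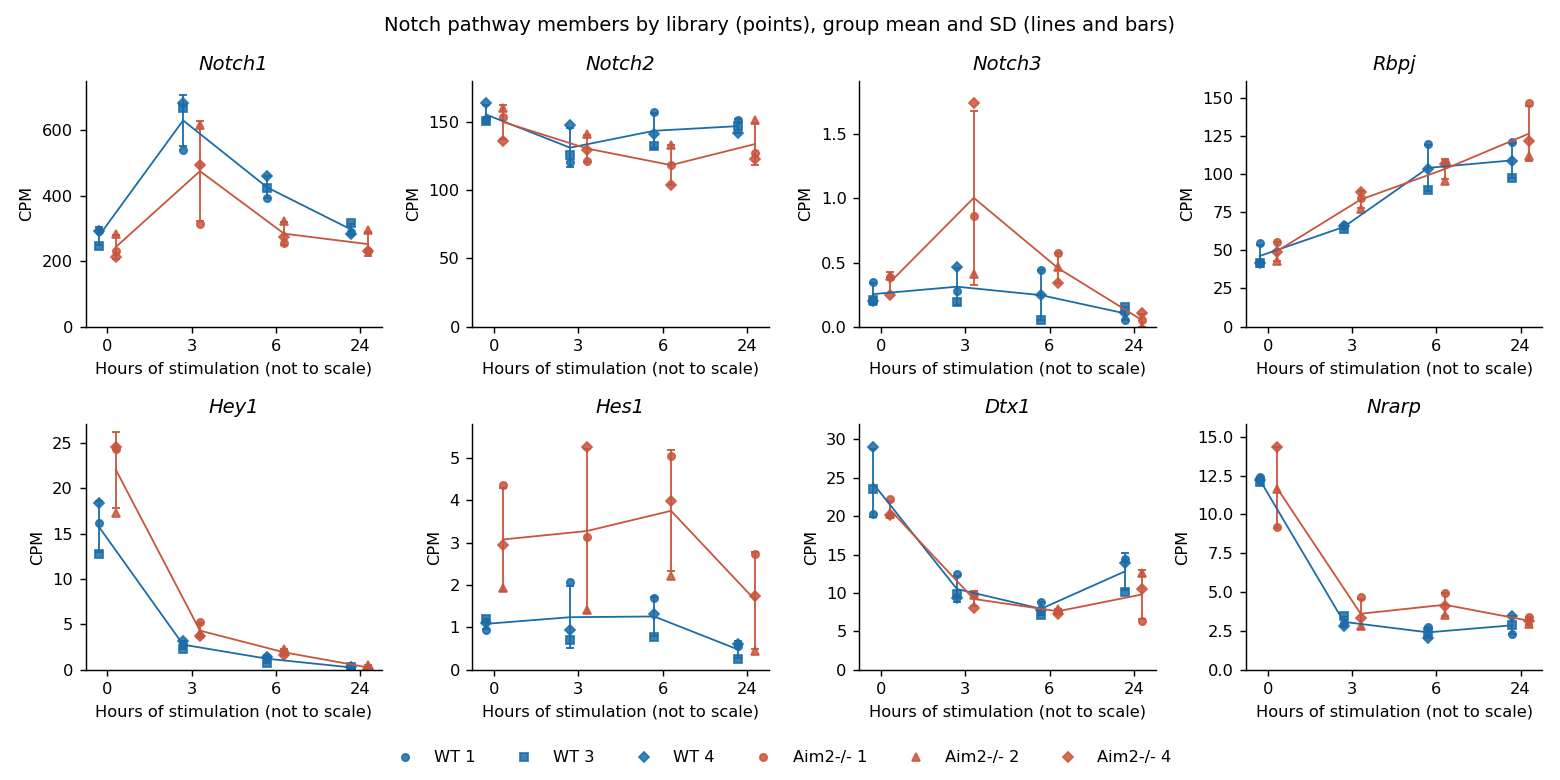
Levels of the 8 genes in CPM (vertical axes, each from 0) at 0, 3, 6 and 24 h (horizontal axes, not to scale). Points are libraries, lines join the group means and bars show the SD of 3 mice, with WT in blue and Aim2-/- in red. Hey1, Nrarp and Dtx1 lie lower at every later time than at 0 h, Rbpj rises in both genotypes, Notch1 is highest at 3 h, and Hes1 lies higher in Aim2-/- at 0 h and 6 h without overlap.

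Hey1 (chromosome 3, 8663359 to 8667256, minus strand, GRCm38) encodes a basic helix-loop-helix repressor. In the unstimulated cells it had 16.2, 12.8 and 18.4 CPM in WT 1, 3 and 4 and 24.4, 17.2 and 24.6 CPM in Aim2-/- 1, 2 and 4. At 3 h the WT libraries held 2.82, 2.31 and 3.18 CPM and the Aim2-/- libraries 5.24, 4.04 and 3.67 CPM. No library of 3 h came near one of 0 h, and the WT mice kept between 17.3% and 18.1% of their level, the Aim2-/- mice between 14.9% and 23.4%.

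At 6 h Hey1 was at 1.46, 0.730 and 1.46 CPM in WT 1, 3 and 4 and at 1.93, 2.26 and 1.59 CPM in Aim2-/- 1, 2 and 4. At 24 h it was at the edge of detection, with 2, 6 and 7 counts in the WT libraries and 3, 11 and 1 counts in the Aim2-/- libraries. Each step of the time course thus lowered Hey1 in every mouse. The fitted log2 changes against 0 h were -2.50 (SE 0.35), -3.68 (SE 0.37) and -5.91 (SE 0.45) in WT at 3, 6 and 24 h, and -2.35 (SE 0.34), -3.51 (SE 0.36) and -6.43 (SE 0.45) in Aim2-/-. The 24 h values rest on few counts, and without Aim2-/- 2 the last one was -7.85.

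Over all 24 libraries, the courses closest to that of Hey1 were those of Ctsf, a lysosomal protease, Vps37b, a subunit of the endosomal sorting complex, Dusp1, a phosphatase of MAP kinases, Chrne, a subunit of the acetylcholine receptor, and Pou6f1, a transcription factor. Likeness was the root mean square difference of log2 CPM after each gene was centred, over 11316 genes with a mean of at least 1 CPM. It ran from 0.562 for Ctsf to 0.696 for Pou6f1. Ctsf went from a mean of 15.8 CPM to 0.374 CPM between 0 and 24 h in WT cells, and Dusp1 from 296 to 10.1 CPM. With the 8 group means in place of the libraries, Gjb2 took the place of Chrne. Annotated genes overlap Vps37b, Dusp1, Chrne and Pou6f1, mostly on the other strand.

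Nrarp (chromosome 2, 25180758 to 25183339, plus strand) encodes an ankyrin repeat protein that limits Notch signalling. It started at 12.4, 12.1 and 12.2 CPM in WT 1, 3 and 4 and at 9.20, 11.7 and 14.4 CPM in Aim2-/- 1, 2 and 4. At 3 h it was at 3.01, 3.45 and 2.80 CPM in WT and at 4.69, 2.80 and 3.34 CPM in Aim2-/-, so most of its fall was over by the first sampled time. At 24 h it was still at 2.28, 2.88 and 3.44 CPM in WT and 3.42, 2.92 and 3.13 CPM in Aim2-/-. The fitted log2 changes at 3, 6 and 24 h were -1.99, -2.34 and -2.09 in WT and -1.70, -1.49 and -1.89 in Aim2-/-, with SE between 0.21 and 0.22.

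Dtx1 (chromosome 5, 120680202 to 120711927, minus strand) encodes an E3 ubiquitin ligase that binds Notch receptors. It went from 20.3, 23.5 and 29.1 CPM in WT 1, 3 and 4 to 12.4, 9.82 and 9.30 CPM at 3 h, and from 22.2, 20.3 and 20.1 CPM in Aim2-/- 1, 2 and 4 to 9.89, 9.67 and 8.10 CPM. The lowest group means came at 6 h, with 7.94 ± 0.838 CPM in WT and 7.62 ± 0.324 CPM in Aim2-/- (SD, n = 3). At 24 h the WT libraries held 14.4, 10.1 and 14.0 CPM and the Aim2-/- libraries 6.31, 12.5 and 10.6 CPM. Dtx1 therefore lay above its 6 h level at 24 h in each mouse except Aim2-/- 1, and it stayed below the 0 h level in all 6. Its fitted log2 changes at 24 h were -0.92 (SE 0.20) in WT and -1.09 (SE 0.20) in Aim2-/-.

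Hes1 (chromosome 16, 30064384 to 30067796, plus strand), another helix-loop-helix repressor and a common readout of Notch, did not follow Hey1. Its WT libraries (mice 1, 3 and 4) held 0.950, 1.19 and 1.12 CPM before stimulation and 2.08, 0.708 and 0.935 CPM at 3 h. They held 1.69, 0.779 and 1.31 CPM at 6 h, and 0.557, 0.257 and 0.616 CPM at 24 h. Levels at 3 and 6 h lay on both sides of those at 0 h, and the fitted log2 changes were 0.20 (SE 0.57) and 0.22 (SE 0.57). At 24 h each WT library lay below each one of 0 h, with a fitted log2 change of -1.18 (SE 0.63). In Aim2-/- cells the change at 24 h was -0.90 (SE 0.54), and the groups overlapped.

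Rbpj (chromosome 5, 53466152 to 53657362, plus strand) encodes the factor that carries the Notch intracellular part on DNA and represses the same targets in its absence. It rose from 54.9, 42.0 and 41.9 CPM in WT 1, 3 and 4 to 66.3, 63.9 and 65.7 CPM at 3 h, 119, 89.3 and 103 CPM at 6 h and 121, 97.4 and 109 CPM at 24 h. In Aim2-/- 1, 2 and 4 it went from 55.6, 43.0 and 49.1 CPM to 84.3, 77.2 and 88.2 CPM, then 108, 95.5 and 106 CPM, and then 146, 112 and 121 CPM. All stimulated libraries lay above the unstimulated ones of their genotype. The fitted log2 change at 24 h was 1.24 (SE 0.13) in WT and 1.36 (SE 0.13) in Aim2-/-.

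The receptors took 3 different courses. Notch1 (chromosome 2, 26457903 to 26516663, minus strand) started at 293, 246 and 292 CPM in WT 1, 3 and 4 and reached 540, 667 and 681 CPM at 3 h, before 392, 422 and 459 CPM at 6 h and 288, 316 and 283 CPM at 24 h. In Aim2-/- 1, 2 and 4 it started at 231, 283 and 214 CPM and reached 313, 616 and 494 CPM at 3 h, before 255, 322 and 274 CPM at 6 h and 230, 294 and 230 CPM at 24 h. Every mouse had its highest Notch1 level at 3 h, the 6 h groups still stood apart from 0 h in WT but not in Aim2-/-, and at 24 h the groups overlapped with 0 h in both genotypes.

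Notch2 (chromosome 3, 98013527 to 98150361, plus strand) ranged from 103 CPM in an Aim2-/- library of 6 h to 163 CPM in a WT library of 0 h. None of its 6 fitted stimulation changes was larger than the fall by 0.34 on the log2 scale (SE 0.10) in Aim2-/- at 6 h. Notch3 (chromosome 17, 32120820 to 32166852, minus strand) had 0 to 37 counts in a library, its highest being 1.74 CPM in Aim2-/- 4 at 3 h. At 24 h all its libraries had at most 3 counts. Its group means at 0 h were 1.65-fold above the floor in WT and 2.27-fold in Aim2-/-. These are differences of few counts, and WT 3 went from 4 counts to 3. Genes on the opposite strand overlap Notch1, Notch3, Rbpj and Nrarp, genes on the same strand overlap Notch1 and Notch2, and as the counting is not stated to use strand, their counts may include reads of those genes.

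**Figure D2:**
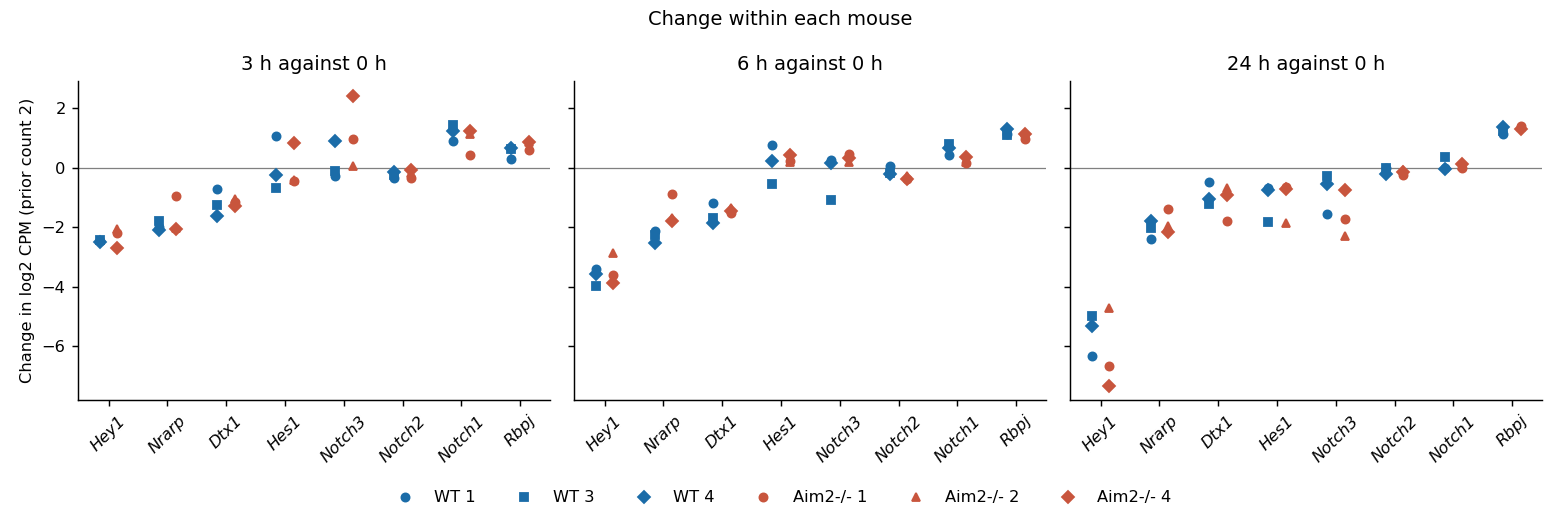
Change in log2 CPM (vertical axis, prior count of 2) from 0 h to 3, 6 and 24 h within each mouse, 1 panel per time and 1 point per mouse, with WT in blue and Aim2-/- in red. Hey1 has the lowest point of each panel, and its points lie further down at 24 h than at 3 h, Nrarp and Dtx1 are below 0 in all 6 mice, and Rbpj is above 0 in all 6.

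As a description of these courses, 5 of the 8 genes in WT had 24 h libraries that lay wholly below those of 0 h, and 1 lay wholly above. In Aim2-/- cells these numbers were 4 and 1. Among all 15325 genes tested, 37.3% lay wholly below and 39.3% wholly above in WT at 24 h, and 33.6% and 37.3% in Aim2-/-. Since the genes were picked with these changes in view, nothing is read from the counts.

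Promoter sequences from RefSeq (GRCm38.p6), 250 bases before the start, were found for 6 of the 8 genes in 7 windows, and not for Hey1 and Hes1. They were searched on both strands for TGGGAA, the core of the site that RBPJ binds, for its longer form GTGGGAA, which contains the core, and for CACGTG, an E-box of the kind that Hey and Hes proteins can bind. The core was present only in both windows of Rbpj, and 21.6% of the 32851 RefSeq windows of mouse genes of the same length hold it. The windows of Rbpj overlap, and the match in the later one is the same site as a match in the first. The longer form was in none of the 7, against 5.42% of all windows. The E-box was in the window of Nrarp only, against 6.02% of all windows. The stretches below are shown because they hold matches to these motifs, which are in capitals. The Nrarp window is chr2:25180508-25180757 (plus strand), and the Rbpj stretch, chr5:53590096-53590213 (plus strand), ends before the first annotated exon there. This Rbpj stretch holds the other match of the first window and leaves out the shared one. A match describes the letters and does not show that a protein binds.
Nrarp: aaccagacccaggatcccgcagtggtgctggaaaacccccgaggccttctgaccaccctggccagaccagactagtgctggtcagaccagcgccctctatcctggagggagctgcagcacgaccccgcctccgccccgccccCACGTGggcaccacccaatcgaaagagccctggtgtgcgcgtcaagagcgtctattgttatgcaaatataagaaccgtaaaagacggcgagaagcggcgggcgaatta
Rbpj: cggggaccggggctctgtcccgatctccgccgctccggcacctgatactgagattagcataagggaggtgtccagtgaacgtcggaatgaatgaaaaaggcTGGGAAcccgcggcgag

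Of the 8 genes, Nrarp and Notch1 differed between the genotypes past the test's threshold, both at 6 h. That makes 2 of 8 called by edgeR's quasi-likelihood test at an adjusted p under 0.05, where 15.8% of all genes tested were called. At 0, 3 and 24 h none of the 8 was called, against 5.23%, 0.294% and 0.666% of all genes. At an unadjusted p under 0.05 there were 1, 4 and 1 of the 8 at these times, beside 23.8%, 15.3% and 20.5% of all genes. DESeq2 and limma-voom also called none at 0, 3 and 24 h, and at 6 h DESeq2 called 4 and limma-voom 2, beside 21.2% and 16.3% of all genes. Over the 4 times the 2 calls became 9 without Aim2-/- 2, 1 without the mouse labelled WT 1 and 0 without any other mouse. Without Aim2-/- 2 the share of all genes called was also higher, with 13.7%, 7.31%, 25.7% and 17.3% at 0, 3, 6 and 24 h.

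Nrarp was at 2.75, 2.43 and 2.05 CPM in WT 1, 3 and 4 at 6 h and at 4.96, 3.51 and 4.09 CPM in Aim2-/- 1, 2 and 4, so the groups did not overlap. Its log2 difference was 0.80 (SE 0.22, 95% interval 0.34 to 1.25, adjusted p = 0.0232, edgeR). Without the mouse labelled WT 1 it was 0.90 (adjusted p = 0.0370). The call was lost without Aim2-/- 1 (adjusted p = 0.0828), Aim2-/- 4 (0.0690), WT 3 (0.116) or WT 4 (0.141). At 0, 3 and 24 h the log2 differences of Nrarp were -0.06, 0.23 and 0.14, and none was called.

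Notch1 was lower in Aim2-/- at 6 h, where its highest library, 322 CPM, lay below the lowest WT library, 392 CPM. The log2 difference was -0.58 (SE 0.18, 95% interval -0.95 to -0.22, adjusted p = 0.0336, edgeR). Without the mouse labelled WT 1 it was -0.64 and missed the threshold (adjusted p = 0.0512). The call was also lost without Aim2-/- 1 (0.0787), Aim2-/- 4 (0.112), WT 3 (0.114) or WT 4 (0.135). At 0, 3 and 24 h the differences of Notch1 were -0.19, -0.41 and -0.23.

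The largest difference between the genotypes was that of Hes1, and it was not called. Aim2-/- 1, 2 and 4 held 4.36, 1.92 and 2.95 CPM before stimulation and 3.14, 1.42 and 5.27 CPM at 3 h. They held 5.05, 2.22 and 3.99 CPM at 6 h, and 2.74, 0.453 and 1.74 CPM at 24 h. All lay above the WT libraries at 0 h and 6 h, and 1 or more overlapped with them at 3 h and 24 h. The log2 differences were 1.50 (SE 0.56), 1.39 (SE 0.55), 1.57 (SE 0.55) and 1.78 (SE 0.61) at 0, 3, 6 and 24 h, with adjusted p of 0.110, 0.241, 0.0556 and 0.130 (edgeR). Without the mouse labelled WT 1 they were 1.41, 1.99, 1.83 and 1.90, with adjusted p of 0.196, 0.111, 0.0732 and 0.189. Without Aim2-/- 2, the Aim2-/- mouse with the least Hes1 at each time, all 4 were called, with adjusted p from 0.00566 to 0.0252. With DESeq2 the difference at 6 h was called (adjusted p = 0.0327).

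Hes1 and the markers of myeloid cells, all 10 of which were above the floor in at least 1 library, both had higher means in Aim2-/-. Within the Aim2-/- group both were ordered 1, 4 and 2 from high to low at 0, 6 and 24 h. At 3 h Hes1 was highest in Aim2-/- 4, while the myeloid sums of Aim2-/- 1, 4 and 2 were 226, 93.2 and 55.4 CPM. The order 1, 4 and 2 was not particular to myeloid cells: at 0 h it also held for the erythroid sums of 327, 199 and 21.2 CPM, for the basophil and mast cell sums of 102, 76.8 and 53.3 CPM and for the dendritic cell sums of 61.6, 29.3 and 24.5 CPM. At 6 h the myeloid markers summed to 248, 70.4 and 95.9 CPM in Aim2-/- 1, 2 and 4 and to 58.4, 38.9 and 25.5 CPM in WT 1, 3 and 4, and all 10 had a higher mean in Aim2-/-. With the level of these markers in each library as a term of the model, an alternative chosen after seeing the data, the log2 differences of Hes1 were 0.64, 0.81, 0.80 and 0.82 at 0, 3, 6 and 24 h, and the lowest adjusted p was 0.442. That term also brought the 6 h differences of Notch1 to -0.31 (adjusted p = 0.289) and of Nrarp to 0.63 (adjusted p = 0.174). With it 1.0% of all genes were called at 6 h, where 15.8% were called without it. Markers of endothelial and stromal cells, in which Notch3 and Hey genes are well known, summed to 4.33 to 5.47 CPM at 0 h in Aim2-/- and to 0.879 to 1.90 CPM in WT. At 3 h these sums overlapped, with 9.46, 3.07 and 9.23 CPM in Aim2-/- 1, 2 and 4 and 4.21, 2.64 and 3.41 CPM in WT 1, 3 and 4. They also overlapped at 24 h. The myeloid sums of the genotypes did not overlap at any time, so this term and the genotype cannot be told apart, and the part of the other cells in the differences was not tested.

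**Figure D3:**
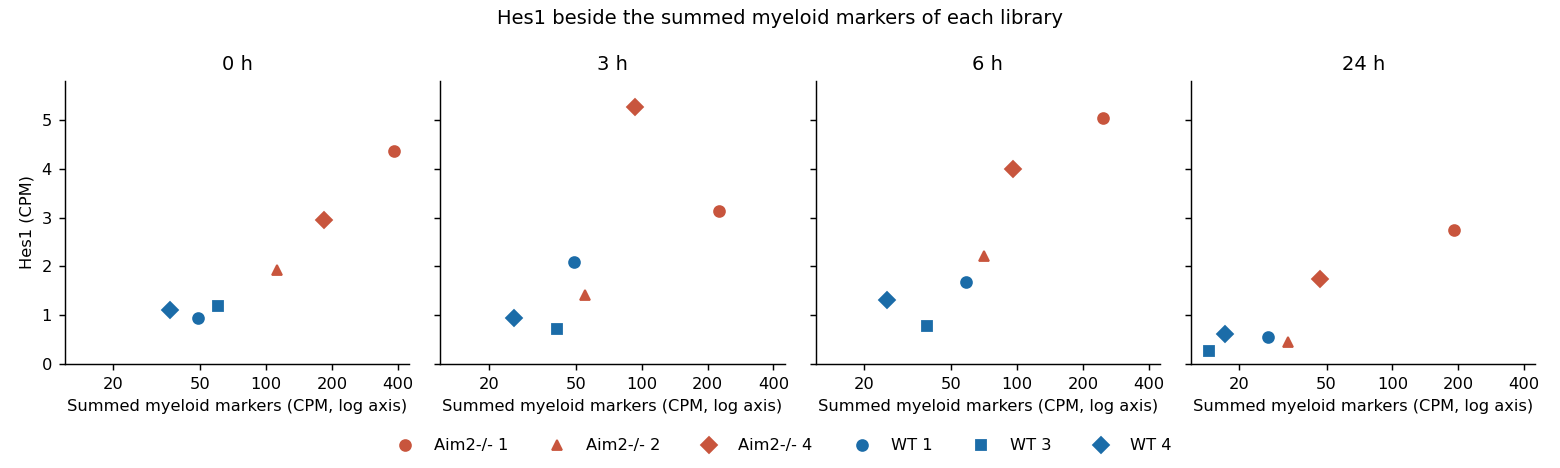
Hes1 in CPM (vertical axis) against the summed CPM of 10 myeloid markers (horizontal axis, log scale) in each library, 1 panel per time, with WT in blue and Aim2-/- in red. Aim2-/- 1 has the highest marker sum in all panels, and Aim2-/- 2 the lowest of its genotype in both measures.

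Hey1 was higher in Aim2-/- at 0, 3 and 6 h by 0.49 (SE 0.32), 0.64 (SE 0.34) and 0.66 (SE 0.37) on the log2 scale, with adjusted p of 0.365, 0.369 and 0.215 (edgeR), so none was called. At 24 h the difference was -0.03 (SE 0.58, adjusted p = 0.989). With the mouse labelled WT 1 left out, Hey1 differed by 0.50, 0.65, 0.81 and -0.40 at the 4 times, with a lowest adjusted p of 0.211. At 3 h and 6 h all 3 Aim2-/- libraries lay above the 3 WT libraries. Notch3 at 3 h had a log2 difference of 1.67 (SE 0.58, adjusted p = 0.196), and of 1.59 without the mouse labelled WT 1, with WT libraries of 0.278, 0.189 and 0.467 CPM and Aim2-/- libraries of 0.860, 0.413 and 1.74 CPM that overlapped. Rbpj at 3 h was apart without overlap, with a log2 difference of 0.35 (SE 0.13, adjusted p = 0.210), and of 0.36 without the mouse labelled WT 1. Dtx1 differed by -0.22, -0.19, -0.06 and -0.39 at the 4 times, and its interval at 6 h ran from -0.48 to 0.36. With WT 1 left out Dtx1 differed by -0.33, -0.05, 0.02 and -0.29. Notch2 at 6 h differed by -0.28 (SE 0.10, adjusted p = 0.0689, edgeR), with libraries that overlapped. With the libraries of a mouse summed Notch2 differed by -0.10, and by -0.09 without the mouse labelled WT 1. Groups without overlap were found for 4 of the 8 genes at 6 h, 3 higher in Aim2-/- and 1 lower, and 35.6% of all genes tested had them in either direction. At 0, 3 and 24 h they were found for 1, 2 and 0 of the 8, beside 28.5%, 15.1% and 21.3% of all genes.

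**Figure D4:**
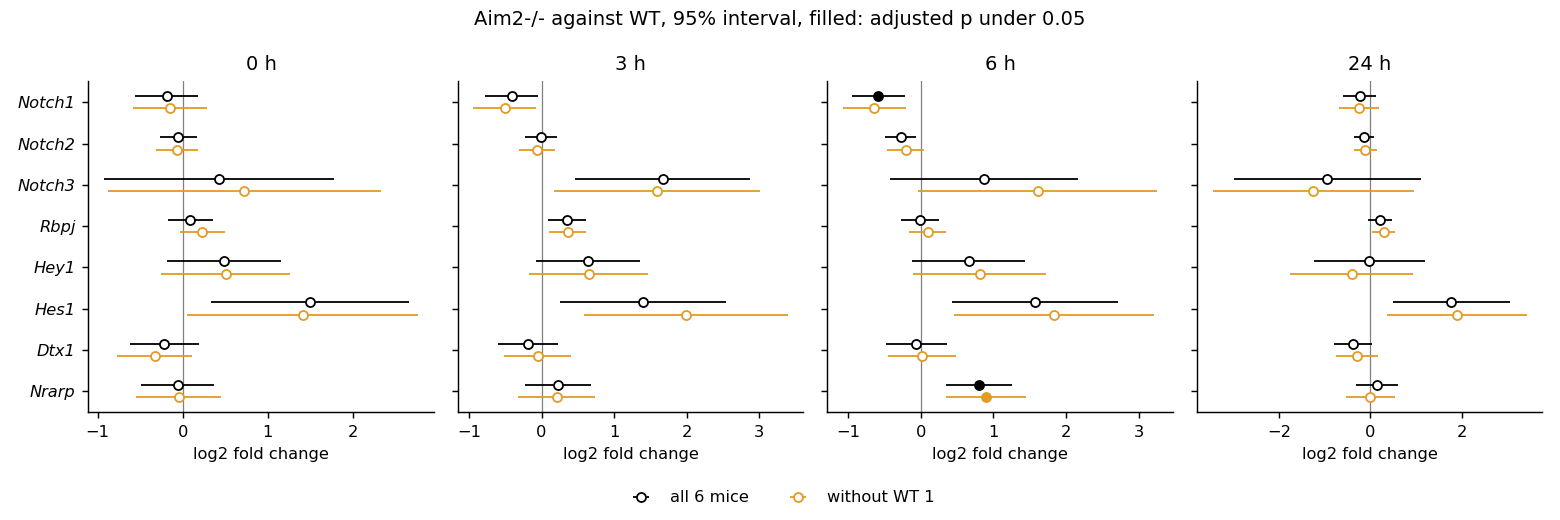
Log2 fold change of Aim2-/- against WT (horizontal axes, a scale of its own for each panel) with its 95% interval for the 8 genes at 0, 3, 6 and 24 h. Black points are fits to all 6 mice, orange points fits without the mouse labelled WT 1, and filled points have an adjusted p under 0.05. Notch1 and Nrarp are filled at 6 h, Nrarp in both fits and Notch1 in that of all mice.

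Whether the response to stimulation differed between the genotypes was tested as an interaction. None of the 8 genes was called at 3, 6 or 24 h by edgeR, DESeq2 or limma-voom, and 0, 1 and 0 of them had an unadjusted p under 0.05, beside 4.26%, 13.2% and 11.9% of all genes. Among all genes 0%, 0.0261% and 0% were called. The one at 6 h was Nrarp, whose fall was smaller in Aim2-/- by 0.86 on the log2 scale (SE 0.30, 95% interval 0.23 to 1.48, adjusted p = 0.216), and by 0.95 without the mouse labelled WT 1 (adjusted p = 0.307). For Hey1 the interaction at 6 h was 0.17, with an interval from -0.84 to 1.18, and 0.31 without that mouse. With the 4 libraries of a mouse summed, Hes1 differed by 1.54 (SE 0.40, adjusted p = 0.135), Hey1 by 0.54 (SE 0.19, adjusted p = 0.169) and Notch1 by -0.37 (SE 0.14, adjusted p = 0.183). None of the 8 was called in that fit by edgeR, with 4 at an unadjusted p under 0.05, and no other tool was run on it. Among all 17163 genes of that fit 2 were called, or 0.0117%, and 23.3% had an unadjusted p under 0.05. Without Aim2-/- 2 Hes1 and Notch1 were called, and so were 16.7% of all genes. Hes1, Hey1 and Notch1 differed there, without the mouse labelled WT 1, by 1.80, 0.56 and -0.41, with a lowest adjusted p of 0.108.

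Around these genes, 74 others of the pathway were examined by role, of which 66 had enough counts to be tested. On stimulation more of them fell than rose. The list was set with earlier results of these data known, so its calls describe these genes and are no independent evidence of a fall. In WT 11 rose and 19 fell at 3 h, 15 and 24 at 6 h, and 14 and 38 at 24 h, where 32.6%, 51.1% and 71.4% of all genes were called in either direction. In Aim2-/- 10 rose and 15 fell at 3 h, 14 and 26 at 6 h, and 15 and 35 at 24 h, against 30.7%, 51.2% and 70.3% of all genes. The median log2 change of the 66 genes at 24 h was -0.55 in WT and -0.51 in Aim2-/-, beside -0.01 and 0.03 for all genes. Of all genes 36.6% rose and 34.8% fell in WT at 24 h, and 36.8% and 33.5% in Aim2-/-. At 3 h 16.2% of all genes rose and 16.4% fell in WT, and 16.1% and 14.6% in Aim2-/-. At 6 h 26.4% rose and 24.8% fell in WT, and 28.5% and 22.7% in Aim2-/-. The median of the list was the same with genes under the floor set to their bounds.

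The ligands were scarce and moved apart. Jag1 fell at 24 h, from 4.15, 4.86 and 4.87 CPM to 0.152, 0.463 and 0.308 CPM in WT 1, 3 and 4 (log2 change -3.89, SE 0.48) and from a mean of 5.85 to 1.26 CPM in Aim2-/- (-2.21, SE 0.41). Jag2 rose at 24 h from 2.45, 4.81 and 4.21 CPM to 10.2, 10.7 and 10.9 CPM in WT (1.47, SE 0.31) and by 1.77 (SE 0.31) in Aim2-/-. Dlk2, a relative of the ligands that lacks part of their receptor-binding region, had at most 3 counts in any library of 0 h and means of 5.49 CPM in WT and 5.27 CPM in Aim2-/- at 24 h, at least 36.0-fold and 35.9-fold higher than the floor. Dll4 rose at 24 h in Aim2-/- to 1.07 CPM (2.82, SE 0.70), while in WT its change of 1.06 (SE 0.77) was not called. The difference between these changes was not called. Dll1 was at 0.693 CPM in WT and 1.50 CPM in Aim2-/- at 0 h and fell at 24 h in both. Dll3 and Dlk1, with group means of at most 0.153 and 0.225 CPM, were not tested. The remaining receptor, Notch4, had group means of 0.246 to 0.716 CPM and no call.

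Genes that prepare the receptors split. Of the 6 glycosylation and maturation genes 3 rose and 3 fell in WT at 24 h. Lfng, a Fringe glycosyltransferase that alters which ligands a receptor answers to, fell from 366 to 123 CPM (log2 change -1.57, SE 0.09), and Mfng, a second Fringe, fell by 0.45 (SE 0.09). Rfng, the third Fringe, rose from 16.2 to 40.4 CPM (1.32, SE 0.13), and Pofut1, which adds O-fucose to the receptors, rose by 0.97 (SE 0.09). Of the 9 receptor cleavage genes 1 rose and 5 fell. Adam10, the protease of the first cut, rose by 0.67 (SE 0.10), and Psen2, a catalytic subunit of gamma-secretase, fell by 1.29 (SE 0.10). Mib2, a ubiquitin ligase for ligands, fell by 1.98 (SE 0.14).

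The nuclear partners of Rbpj mostly fell. Of 8 co-activator genes 6 fell and 1 rose in WT at 24 h. Maml1, a Mastermind, went from 145 to 37.5 CPM (log2 change -1.95, SE 0.11), the acetyltransferase Crebbp from 368 to 86.6 CPM (-2.09, SE 0.12) and its relative Ep300 from 287 to 102 CPM (-1.49, SE 0.15). Maml2, another Mastermind, fell by 1.39 (SE 0.16) and the acetyltransferase Kat2b by 1.07 (SE 0.17). Kat2a, a further acetyltransferase, was the one that rose (1.66, SE 0.11). Of 15 co-repressor genes 9 fell and 3 rose. Of the Groucho-type repressors, Tle4 fell by 1.81 (SE 0.09), Tle1 by 1.52 (SE 0.26) and Tle2 by 1.46 (SE 0.46). The demethylase Kdm5a fell by 1.71 (SE 0.13) and the corepressor Cir1, which binds RBPJ, by 1.58 (SE 0.15), and the deacetylase Hdac2 rose by 1.43 (SE 0.12). In Aim2-/- these genes changed in the same direction at 24 h with an adjusted p under 0.05, except Tle2 (-0.51, SE 0.45, not called).

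Among the 10 turnover genes and inhibitors, 7 fell and 1 rose in WT at 24 h. Dtx4, a relative of Dtx1, fell furthest, from 43.0, 54.3 and 76.9 CPM to 2.53, 1.34 and 2.41 CPM in WT 1, 3 and 4 (log2 change -4.79, SE 0.30) and by 3.82 (SE 0.28) in Aim2-/-. Itch, another ubiquitin ligase that acts on Notch, fell by 1.07 (SE 0.14). Nedd4 was the one that rose (1.36, SE 0.35). Of the 7 other Hes and Hey genes, 4 had too few counts to be tested. Heyl had no count in any 24 h library, and its 0 h means of 0.421 CPM in WT and 0.554 CPM in Aim2-/- were at least 2.75-fold and 3.68-fold higher than the floor.

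Genes known as Notch targets in the T lineage did not move as a group. In WT at 24 h the growth regulator Myc rose by 3.11 (SE 0.21) and the IL-2 receptor chain Il2ra by 2.94 (SE 0.16), both of which also answer to T cell receptor signals, and Gata3 by 0.54 (SE 0.12). Trib2 fell by 2.62 (SE 0.19) and the cell cycle inhibitor Cdkn1a by 1.46 (SE 0.31). All 5 were called in the same direction in Aim2-/-.

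**Figure D5:**
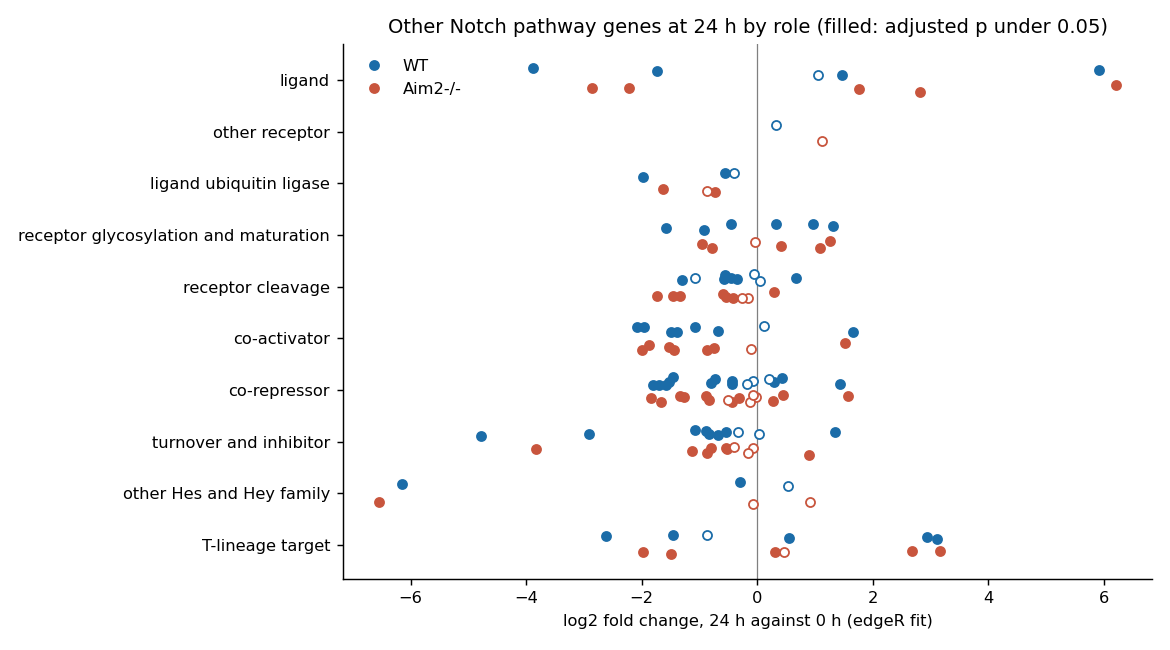
Fitted log2 fold change at 24 h against 0 h (horizontal axis) for the 66 other pathway genes that were tested, 1 row per role, with WT in blue and Aim2-/- in red and genes with an adjusted p under 0.05 filled. Co-activators and turnover genes lie mostly left of 0, and the ligands spread from Jag1 with -3.89 to Dlk2 with 5.92 in WT. The fitted values of Dlk2, Heyl and, in WT, Bend6 rest on groups under the floor.

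Between the genotypes, 3, 0, 18 and 1 of the 66 listed genes were called at 0, 3, 6 and 24 h respectively, that is 4.55%, 0%, 27.3% and 1.52% beside 5.23%, 0.294%, 15.8% and 0.666% of all genes. At 3 h 10 had an unadjusted p under 0.05, and DESeq2 and limma-voom called none. At 0 h Lfng and Mfng were lower in Aim2-/-, each by a log2 difference of -0.40 (SE 0.09, adjusted p = 0.0199 and 0.0169, edgeR), and Gata3 was higher (0.49, SE 0.12, adjusted p = 0.0231). All 3 were also called without the mouse labelled WT 1, with -0.48, -0.46 and 0.53.

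At 6 h 11 of the 18 were lower in Aim2-/- and 7 higher. Among those lower were the receptor genes Poglut1 and Adam10, the co-activator Crebbp, the co-repressors Spen, Ncor1, Kdm5a and Tle4, and the targets Il2ra and Myc. Spen, which joins RBPJ in repression, differed most of these, with 196 CPM in WT and 115 CPM in Aim2-/- (-0.77, SE 0.15, adjusted p = 0.00643, edgeR). Higher were Psen2, Hdac1, Tle5, Bend6, Hes6, Gata3 and Ccnd1. Ccnd1, cyclin D1, was at 0.842, 0.487 and 0.390 CPM in WT 1, 3 and 4 and at 3.12, 1.66 and 2.45 CPM in Aim2-/- 1, 2 and 4 (2.06, SE 0.57, adjusted p = 0.0239), and it was the gene called at 24 h (2.99, SE 0.64, adjusted p = 0.0354). Without the mouse labelled WT 1, Psen2, Crebbp, Spen, Tle5 and Ccnd1 of these were called at 6 h and none at 24 h, while Ctbp2, a co-repressor, was called as higher at 3 h (2.18) and 6 h (2.42). Over the 4 times the 22 calls became 10 without the mouse labelled WT 1, 0 without WT 3 or WT 4, 1 without Aim2-/- 1, 66 without Aim2-/- 2 and 2 without Aim2-/- 4. Of all genes, 11.4%, 1.14% and 0.607% were called at 6 h without WT 1, WT 3 and WT 4. Without Aim2-/- 1, 2 and 4 these shares were 1.92%, 25.7% and 2.71%. With the myeloid term none of the 66 was called at any time, beside 0.914%, 0.215%, 1.0% and 0.0392% of all genes at 0, 3, 6 and 24 h. In the interaction edgeR and limma-voom called none of the 66 genes at any time, with 4, 12 and 7 at an unadjusted p under 0.05 in edgeR at 3, 6 and 24 h, and DESeq2 called 0, 2 and 1. With each mouse as a block, which the labels allow since a mouse was sampled at all times, edgeR called 0, 5 and 3 of the 66, beside 0.0587%, 4.68% and 2.77% of all genes. Those called, which were named after their values were seen, were Lfng (0.60), Mfng (0.52), Spen (-0.49), Tle5 (0.38) and Myc (-0.84) at 6 h, and Lfng (0.61), Adam10 (-0.38) and Trib2 (0.68) at 24 h.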

How the data were processed

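RNA of splenic CD4+ T cells was sequenced in 24 libraries (TruSeq stranded mRNA, single reads). The authors aligned reads to GRCm38 (Ensembl annotation) with STAR and deposited raw counts per gene, not normalized. The use of strand in counting is not stated in the sources used here. The 8 genes and the lists were chosen with earlier results of these data known. Symbols came from GENCODE M21. Counts were fitted with edgeR 4.0.16 (R 4.3.3, quasi-likelihood F test, two-sided, TMM factors, 1 mean per group, filterByExpr with a minimum count of 10, 15325 genes tested). Benjamini-Hochberg adjustment ran over all genes, and an adjusted p under 0.05 is a call. P values of the main fit rest on the spread between libraries within a group, which come from different mice. That fit treats the 24 libraries of 6 mice as independent, so the mouse is not its unit of replication. Between genotypes, the fit with the libraries of a mouse summed has 1 value per mouse. So do the fits with only the libraries compared, in which each mouse has 1 library. At 6 h such a fit tested 7 of the 8 genes and called 1. It also called 7 of the 61 listed pathway genes it tested, beside 7.17% of all genes. At the other times these fits called none of the genes of either set. The self-test on simulated counts recovered the set changes. It drew independent libraries and set no changes in scarce genes, so it does not give the error rate for paired libraries or such genes. Libraries of a mouse are paired: 36 pairs from the same mouse correlated with r from 0.139 to 0.567 (log2 CPM deviations from group means).

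Named pathway genes were those called between genotypes, those called at 24 h with an absolute log2 change over 1 and at least 1 CPM, and all ligands and Notch4. Some genes that met this rule are not reported here. Alternatives were other size factors, DESeq2 1.42.0, limma-voom (3.58.1), other filters, only the libraries compared, mouse blocks, marker terms and leaving out each mouse.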

Additional observations from a re-analysis of the deposited data

How the results depend on the processing

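The number of calls between genotypes depended on the setting, while the pathway list's calls on stimulation stayed within 1.5 times of those given in all settings run. Over 4 times the members gave 2 calls and the pathway list 22. These became 4 and 36 with DESeq2, 5 and 40 without a filter on low counts, 1 and 7 with only the libraries compared, 0 and 6 with the B cell marker level as a term, and 0 and 0 with the myeloid marker level as a term. The share of all genes called moved with the setting too. At 6 h it was 15.8% in the main fit, 21.2% with DESeq2 and 9.38% without the filter. It was 7.17% with only the libraries compared, 4.5% with the B cell term and 1.0% with the myeloid term. With the mouse number as a replicate block the calls were 10 and 92, beside 23.6%, 15.2%, 36.0% and 21.1% of all genes at 0, 3, 6 and 24 h. Deviations of WT and Aim2-/- mice of 1 number correlated between -0.165 and 0.300. WT and Aim2-/- mice of different numbers were not compared in this way, so whether the numbers pair the genotypes was not tested. Leaving out 1 mouse gave 0 to 9 calls among the members and 0 to 66 in the pathway list, the highest in both without Aim2-/- 2. Among all genes, 25.7% were called at 6 h without Aim2-/- 2, the highest share of these fits there, and 0.607% without WT 4, the lowest. With mice summed, the members gave 0 to 2 calls, beside 0% to 16.7% of all genes. With each mouse as a replicate block, the pathway list in stimulated cells gave 35 to 54 calls per comparison, against 25 to 52 without. Each count lay within 1.5 times of its counterpart. Among named genes and members 28 tests gained a call and none lost one. The other 254 stayed called or stayed uncalled. The members gave 0 interaction calls in all settings run. The pathway list also gave 0 interaction calls, a count added after seeing the data, but 8 with each mouse as a replicate block, 3 with DESeq2, 1 with library totals only, 1 without a filter on low counts, 1 with the myeloid term and 0 to 1 without 1 mouse. No called value changed sign, and 116 uncalled values did.

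Fits to library totals shifted the median gene by up to 0.12 on the log2 scale at 3 and 6 h, which is the size of the smaller changes of Notch2. Some scarce genes gave no value under stricter filters, such as Hey1 at 24 h between genotypes with only the libraries compared and Notch3 with a mean of at least 1 CPM. Of the members' stimulation values, 20 moved by over 1 SD of the mice and 589 by less. Depth limits Hey1 at 24 h, Notch3 and the scarce ligands. The causes of these changes with the setting were not tested.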
